A study of Mus musculus with 2 samples.

Results

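Retinoic acid genes were examined in the femoral growth plate cartilage of *Tric-b*-knockout mouse embryos. The members were 9 genes of the retinoid pathway, taken by name, with every probe set that the array annotation gives to that gene alone. This rule gave 12 probe sets of 45037, and 9 genes of the 18193 with a probe set of their own. Gene expression was measured on 2 Affymetrix mouse genome arrays. The first held RNA of the femoral cartilage section with columnar and hypertrophic chondrocytes, and the other the section enriched for round chondrocytes. Both came from *Tric-b*-knockout embryos at E17.5, whose strain label names C57BL/6J and 129Sv. Each RNA was a mixture of 3 preparations by the description of the design, so each zone had 1 array and the differences below come without replicates. Arrays of wild-type embryos were not analysed here, and all values compare the zones within the knockout. The paper describes its round chondrocyte sections as enriched for these cells. Other cells may be included in either section.

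Retinoic acid is a signalling form of vitamin A. Retinol travels in blood on RBP4, is oxidized to retinal inside cells, and is turned into retinoic acid by the ALDH1A enzymes. CYP26 enzymes break retinoic acid down, and CRABP proteins carry it through the cytoplasm. In the nucleus, a retinoic acid receptor (RAR) paired with a retinoid X receptor (RXR) binds direct repeats of a short motif near target genes and changes their transcription when the ligand binds. In mouse limbs, chondrogenesis requires low retinoic acid signalling, and RARγ is the receptor best known from cartilage.

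The promoter windows of 3 retinoid genes are shown here, 2 that hold the repeat known as a binding motif of RAR and RXR and 1 without it. *Rarb* and *Cyp26a1* are textbook targets of retinoic acid, and *Cyp26b1* is the breakdown enzyme on the member list. Each window runs 5′ to 3′ along the gene from 250 bases before to 50 bases after the annotated start (RefSeq, GRCm38.p6). The *Rarb* window is chr14:16575427-16575726 on the minus strand, that of *Cyp26a1* is chr19:37697558-37697857 on the plus strand, and that of *Cyp26b1* is chr6:84593761-84594060 on the minus strand. Capitals mark the hexamers of a direct repeat.
Rarb: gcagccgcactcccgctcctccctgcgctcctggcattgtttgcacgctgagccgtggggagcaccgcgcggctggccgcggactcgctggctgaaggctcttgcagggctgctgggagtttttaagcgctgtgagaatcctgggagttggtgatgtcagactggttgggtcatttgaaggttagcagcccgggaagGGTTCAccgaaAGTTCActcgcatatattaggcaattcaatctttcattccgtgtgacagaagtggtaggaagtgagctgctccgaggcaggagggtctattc
Cyp26a1: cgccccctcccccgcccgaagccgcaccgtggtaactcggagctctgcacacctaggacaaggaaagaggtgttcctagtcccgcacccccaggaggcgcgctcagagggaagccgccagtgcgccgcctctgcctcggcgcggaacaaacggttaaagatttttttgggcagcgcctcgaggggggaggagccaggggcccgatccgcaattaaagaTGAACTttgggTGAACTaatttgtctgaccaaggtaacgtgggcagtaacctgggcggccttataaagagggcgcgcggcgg
Cyp26b1: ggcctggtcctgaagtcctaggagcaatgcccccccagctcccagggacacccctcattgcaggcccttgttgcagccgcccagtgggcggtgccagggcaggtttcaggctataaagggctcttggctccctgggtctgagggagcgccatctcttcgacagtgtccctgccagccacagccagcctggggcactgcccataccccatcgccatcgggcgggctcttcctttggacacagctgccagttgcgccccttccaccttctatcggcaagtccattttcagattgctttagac

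The hexamers searched were AGGTCA or GGGTCA or AGTTCA or GGTTCA, on both strands, repeated in the same direction with 1, 2 or 5 bases between them. *Rarb* held a repeat with 5 bases between the hexamers at positions -53 to -37 from the start, and *Cyp26a1* held another at -32 to -16, read on the opposite strand. Of 32851 promoter windows in the table, 0.0974% held a repeat with this spacing, 0.268% held one with 2 bases and 0.222% one with 1 base, whereas 43.7% held at least 1 hexamer. The table held 14 windows for 8 of the 9 members, with no entry for *Crabp2*, and of these windows the *Rarb* one alone held a repeat with any of these spacings. Of 54 genes on the member list and the lists of wider pathway and induced genes described below, 39 had a window, and their 59 windows held 2 repeats spaced by 5 bases (those printed), 1 spaced by 1 base (*Bco1*, encoding the enzyme that cleaves carotene) and 0 spaced by 2 bases. GC content of the member windows ranged from 40.7% to 83.0% with a median of 63.6%, and the median over all windows was 52.7%. A match of letters is a description of the sequence and not a measured binding site.

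Signals are linear probe set intensities, and a floor for low signals was set at the 40th percentile of both arrays together, 65.9. Signals under the floor were not distinguished from each other. Most zone markers fitted the labels of the 2 sections. The columnar/hypertrophic section had higher signals, by 2-fold or more, for all 8 columnar and prehypertrophic markers compared and for 3 of 4 hypertrophic markers, and lower signals for 5 of 6 markers of the round zone and joint. Among them, *Ihh* (a prehypertrophic signal) and *Col10a1* (the hypertrophic collagen) were higher there, and *Prg4* (lubricin of the joint surface) was lower. The other hypertrophic marker compared, *Vegfa*, was lower there on both of its probe sets, with 1877 against 3095 in the round section on the leading one. *Mmp13* lay under the floor in both arrays. *Col2a1*, encoding the collagen of all cartilage, gave 50518 in the columnar/hypertrophic section, against 49311 in the round section. Markers of perichondrium, tendon and fibroblasts were lower by 2-fold or more in the columnar/hypertrophic section in 9 of 12 compared genes, and 2 of the 12 had a difference above 0. The summed signals of all 15 such markers measured were 48792.3 there, against 120046.1 in the round section. Of the 15, 3 (*Scx*, *Thy1* and *Dpp4*) lay under the floor in both on the probe set that stood for the gene. In such bulk sections, fewer cells of a type and less RNA per cell cannot be told apart. The 4 probe sets of *Tmem38b*, which encodes TRIC-B, gave signals from 43.1 to 304 in the columnar/hypertrophic section, against 69.4 to 323 in the round section. The position of these probes relative to the deletion is not given in the sources used here, so these values do not check the genotype.

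Of the 9 genes, *Rarg*, *Rxra*, *Cyp26b1* and *Rbp4* had signals above the floor in both arrays, *Rara* in the round section alone, and *Aldh1a2*, *Crabp1*, *Crabp2* and *Rarb* in neither. Among all 18193 genes, 65.0% lay above the floor in the columnar/hypertrophic section and 66.3% in the round section. None of the 4 members above the floor in both arrays differed by 2-fold between the zones. The other member compared, *Rara*, has only a bound, so whether it differed by 2-fold is undecided. Of 12714 genes compared, bounds included, 4.26% were higher by 2-fold or more in the columnar/hypertrophic section and 6.17% lower. A count of 0 among 5 genes, with the *Rara* bound counted as short of 2-fold, is close to what the background gives. The higher genes made up 40.8% of those past 2-fold (541 against 785), and 51.4% after lowess centring (653 against 617). The median log2 difference, columnar/hypertrophic minus round, was -0.03 over the 5 members and -0.04 over all genes compared. The first of these is the *Rara* bound itself and not a measured difference. With a floor at the 60th percentile, which leaves out *Rara*, the medians were -0.13 over 4 members and -0.02 over all genes compared.

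**Figure D1:**
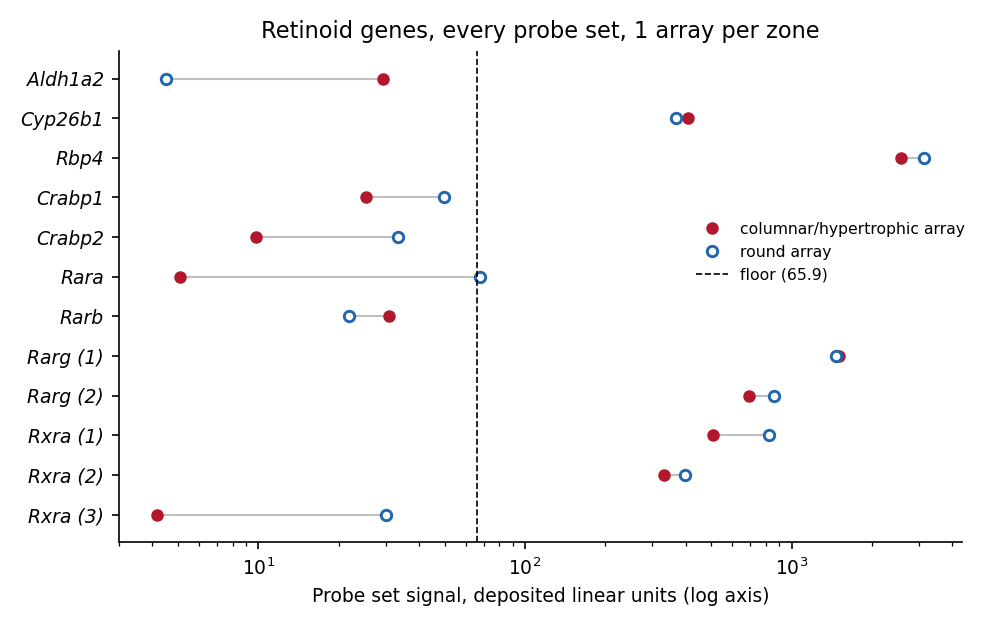
Signals (x axis, deposited linear units on a log scale) of all 12 probe sets of the 9 retinoid genes in the columnar/hypertrophic section (filled red) and in the round section (open blue), 1 array per zone, with probe sets of a gene numbered from the brightest. The dashed line is the floor of 65.9. *Rbp4*, *Cyp26b1* and the brighter probe sets of *Rarg* and *Rxra* lie to its right in both arrays, and *Aldh1a2*, *Crabp1*, *Crabp2* and *Rarb* to its left in both.

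Of the nuclear receptors, *Rarg*, encoding RARγ, had the smallest difference on its leading probe set among the members above the floor in both arrays. This brighter probe set had a signal of 1502 in the columnar/hypertrophic section, against 1467 in the round section, a log2 difference of 0.03. The other probe set had signals of 689.6 in the columnar/hypertrophic section, against 857.2 in the round section, a log2 difference of -0.31. The probe sets thus lay on opposite sides of 0. Across 5446 genes with several probe sets above the floor, the pooled SD of these log2 differences within a gene was 0.34. This spread comes from probes on the same arrays and says nothing of how animals or preparations vary.

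*Rara*, encoding RARα, had a single probe set, with signals of 5.10 in the columnar/hypertrophic section, against 67.5 in the round section. The round value stood just above the floor, so the log2 difference has only an upper bound, -0.03, which median centring moved to 0.06. A floor at the 20th percentile (22.7) made the bound -1.58. The size of any *Rara* difference thus rests on where the floor is put. *Rarb*, encoding RARβ and itself induced by retinoic acid in many cells, had signals of 31.0 in the columnar/hypertrophic section, against 21.9 in the round section, both under the floor. This is the gene with the receptor motif in the window printed above.

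*Rxra*, encoding RXRα, the partner of the RARs, had the lowest difference among members above the floor in both arrays. The probe set with the higher mean, which stood for the gene, had signals of 506.9 in the columnar/hypertrophic section, against 823.8 in the round section, 1.63-fold lower in the columnar/hypertrophic section (log2 difference of -0.70). Another probe set had signals of 332.9 in the columnar/hypertrophic section, against 399.6 in the round section, a log2 difference of -0.26. The other one lay under the floor, at 4.17 in the columnar/hypertrophic section, against 30.0 in the round section. Both probe sets above the floor were lower in the columnar/hypertrophic section. The markers of perichondrium, tendon and fibroblasts were lower in the same array, with the counts and sums given above, and their part in the *Rxra* difference was not tested.

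The enzymes that set retinoic acid levels were each read by 1 probe set. *Cyp26b1*, encoding a hydroxylase that inactivates retinoic acid, had a signal of 409.2 in the columnar/hypertrophic section, against 369.3 in the round section, a log2 difference of 0.15. The transcript was thus above the floor in both zones. *Aldh1a2*, encoding the main retinal dehydrogenase of the embryo, had signals of 29.2 in the columnar/hypertrophic section, against 4.52 in the round section. Both lay under the floor, so no difference is given.

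Retinoid carriers were split in the same way. *Rbp4*, encoding the retinol carrier of plasma that liver and adipocytes are known to secrete, had the brightest probe set of the member list, with 2561 in the columnar/hypertrophic section, against 3133 in the round section, a log2 difference of -0.29. All 5 hepatocyte markers measured lay under the floor in the columnar/hypertrophic section and 4 of 5 in the round section, where *Apoa2* was at 69.9. The signals of the 5 summed to 162.8 in the columnar/hypertrophic section, against 211.4 in the round section. Of 4 adipocyte markers measured, *Lpl* had signals of 2355 in the columnar/hypertrophic section, against 1860 in the round section, and 3 (*Adipoq*, *Fabp4* and *Pparg*) lay under the floor in both. The signals of all 4, most of it from *Lpl*, summed to 2412.2 in the columnar/hypertrophic section, against 1974.9 in the round section. The part of either cell type in the *Rbp4* signal was not tested. The cytoplasmic retinoic acid carriers lay under the floor in both arrays. *Crabp1* had signals of 25.3 in the columnar/hypertrophic section, against 49.8 in the round section, and *Crabp2* had 9.76 in the columnar/hypertrophic section, against 33.4 in the round section.

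**Figure D2:**
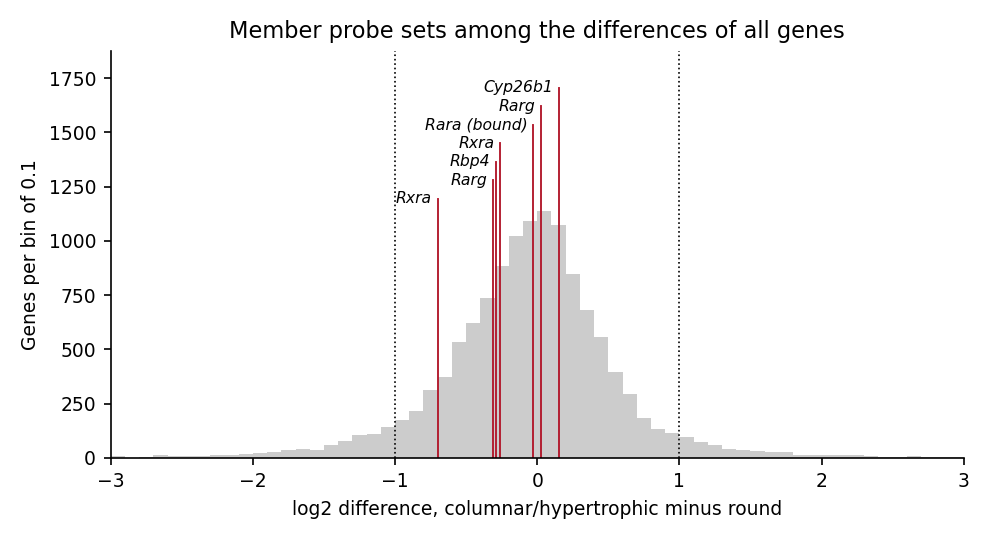
Log2 differences of the 7 member probe sets compared (red lines, with heights set for legibility) over a histogram of the 12714 genes compared (grey, genes per bin of 0.1, x axis columnar/hypertrophic minus round). Dotted lines mark 2-fold, and differences beyond 3 are not drawn. The member values run from -0.70 (*Rxra*) to 0.15 (*Cyp26b1*), all between the dotted lines, with *Rara* drawn at its upper bound.

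Among the other genes of the retinoid pathway, the zones differed most in *Aldh1a3*, which encodes another retinal dehydrogenase. It was read by 3 probe sets. The probe set that stood for the gene had a signal of 1003 in the columnar/hypertrophic section, against 26.5 in the round section. The other probe sets had 509.2 and 325.0 in the columnar/hypertrophic section, against 39.8 and 17.7 in the round section. All 3 lay above the floor in the columnar/hypertrophic section and under it in the round section, so that *Aldh1a3* was higher in the columnar/hypertrophic section by at least 15.2-fold on the first, and at least 7.72-fold and 4.93-fold on the others. *Aldh1a1*, the third enzyme of this group, had signals of 3.82 in the columnar/hypertrophic section, against 69.3 in the round section, just above the floor. Of the transcripts for the last step of retinoic acid synthesis, *Aldh1a3* was thus the only one well above the floor, and in the columnar/hypertrophic section alone. Skeletal muscle markers were also higher in that array, by 2-fold or more in 2 of 3 compared genes, and all 3 differences lay above 0. Of 7 muscle markers measured, 4 lay under the floor in both arrays. The signals of all 7 summed to 972.6 in the columnar/hypertrophic section, against 320.7 in the round section. Osteoblast markers were higher by 2-fold or more in 1 of 3 compared genes, and all 3 differences lay above 0. These summed to 486.8 there, against 178.0 in the round section. The columnar and prehypertrophic markers, with the counts given above, summed to 79120.0 there, against 14011.3 in the round section. The hypertrophic markers summed to 29437.2 there, against 3248.2 in the round section. The part of any of these marker groups in the *Aldh1a3* difference was not tested.

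The wider list held 36 genes with textbook roles in retinoid metabolism and signalling, of which 31 had a probe set of their own and 20 were compared. By 2-fold or more, 1 was higher in the columnar/hypertrophic section (*Aldh1a3*) and 2 were lower (*Ppard* and *Zfp423*), beside 4.26% higher and 6.17% lower over all genes compared. The median log2 difference of the 20 was -0.25, beside -0.04 over all genes compared. Of the 20, 3 were bounds (*Aldh1a3*, *Aldh1a1* and *Adh1*). *Ppard*, encoding a nuclear receptor that can bind retinoic acid, had signals of 164.9 in the columnar/hypertrophic section, against 391.2 in the round section, 2.37-fold lower in the columnar/hypertrophic section. Its other probe set lay under the floor in both. *Zfp423*, encoding a zinc finger protein that works with RAR and RXR, had signals of 156.0 in the columnar/hypertrophic section, against 352.6 in the round section, 2.26-fold lower in the columnar/hypertrophic section. After quantile normalization or lowess centring its log2 difference was -0.98 and no longer reached 2-fold. The perichondrium, tendon and fibroblast markers moved in the same direction as *Ppard* and *Zfp423*, and their part in these differences was not tested.

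All 6 measured genes for retinol uptake and storage lay under the floor in both arrays, *Stra6* (the RBP4 receptor) and *Lrat* (retinol esterification) among them. Genes for the conversion of retinol and retinal were compared in 8 cases, and 0 reached 2-fold. *Rdh10*, the retinol dehydrogenase needed in the mouse embryo, gave signals of 629.5 and 296.5 in the columnar/hypertrophic section, against 1038 and 588.4 in the round section, with log2 differences of -0.72 and -0.99. *Dhrs3*, which reduces retinal back to retinol, had 911.7 in the columnar/hypertrophic section, against 1271 in the round section. *Rdh11*, a retinal reductase, lay on the other side, with 1142 and 1322 in the columnar/hypertrophic section against 830.6 and 710.2 in the round section. *Adh1*, an alcohol dehydrogenase gene, had 128.8 in the columnar/hypertrophic section, against 56.0 in the round section, under the floor, a bound of 0.97. Its log2 difference passed 2-fold under each of the 3 other scalings, from 1.06 to 1.14, and was 1.20 with the lower floor or none. These genes, apart from *Aldh1a3*, *Ppard* and *Zfp423*, were picked as examples after their values were seen.

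Of the genes for partners of the receptors, *Rxrb* had signals of 1306 in the columnar/hypertrophic section, against 1845 in the round section, while *Rxrg* lay under the floor in both. *Rxrb*, like *Rxra*, was lower in the columnar/hypertrophic section, by a log2 difference of -0.50. *Fabp5*, encoding a fatty acid carrier that also delivers retinoic acid to PPARδ, had 3139.7 and 1147 on its probe sets in the columnar/hypertrophic section, against 2029 and 711.0 in the round section. All 7 corepressor and coactivator genes measured lay above the floor, and they had a log2 difference below 0 on the probe set that stood for the gene, with a median of -0.24, and the count of 7 below 0 held under each of the 3 other scalings, where the median lay between -0.19 and -0.15. Over all genes, 5960 of 12714 had a difference above 0. Other probe sets of 4 of the 7 genes lay above 0. They gave log2 differences of 1.06 for *Ncoa3*, 0.35, 0.08 and 0.40 (a bound) for *Ncoa2*, 0.06 for *Nrip1* and 0.09 for *Crebbp*.

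**Figure D3:**
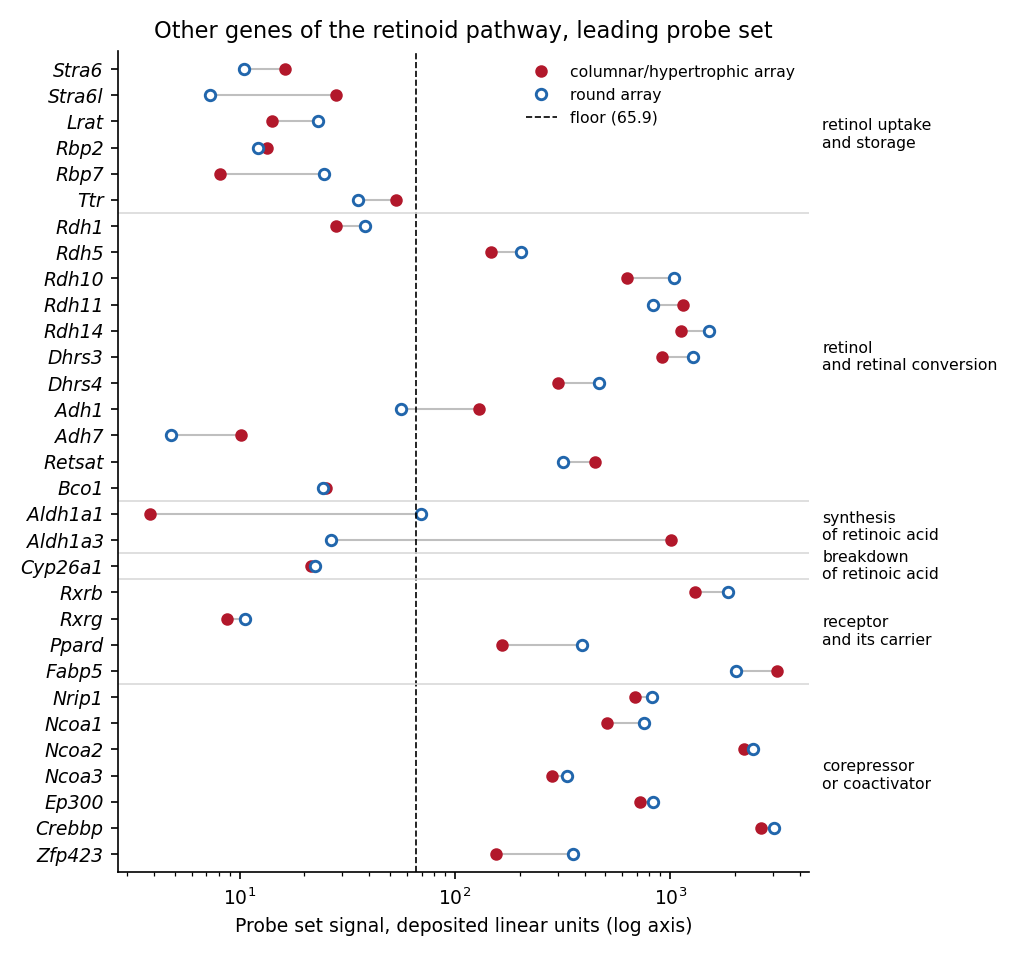
Signals (x axis, deposited linear units on a log scale) of 31 other retinoid pathway genes in the columnar/hypertrophic section (filled red) and in the round section (open blue), 1 array per zone, each on its leading probe set and grouped by role. The dashed line is the floor of 65.9. *Aldh1a3* lies at 1003 in the columnar/hypertrophic section, against 26.5 in the round section, and all genes of retinol uptake and storage lie left of the floor.

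Genes known to be induced by retinoic acid were examined as a readout of the pathway. Of 17 listed, 15 were measured and 10 compared, with 1 higher and 1 lower by 2-fold or more in the columnar/hypertrophic section, where the shares over all genes were 4.26% and 6.17%. The median log2 difference was -0.19, beside -0.04 over all genes compared. Of the 10, 2 were bounds (*Hic1* and *Ret*, under the floor in the columnar/hypertrophic section). Their differences may be lower than counted, so the median and the count of lower genes rest partly on the floor. The list shares 3 genes with the members (*Rarb*, *Cyp26b1* and *Crabp2*). Under the floor in both arrays lay 5 of the 15 (*Rarb*, *Crabp2*, *Stra6*, *Rarres2* and *Cyp26a1*), beside 5479 of 18193 over all genes. *Cyp26a1*, whose window is printed above, had 21.4 in the columnar/hypertrophic section, against 22.5 in the round section. Others lay well above the floor, such as *Bhlhe40*, encoding a transcriptional repressor, with 1030 in the columnar/hypertrophic section, against 1407 in the round section. *Tgm2*, encoding a transglutaminase that other signals also induce, was the higher gene, with 2913 in the columnar/hypertrophic section, against 209.4 in the round section on its leading probe set. Its 5 probe sets above the floor had log2 differences from 2.85 to 3.80, and the other lay under it in both. Columnar and prehypertrophic, hypertrophic, skeletal muscle and osteoblast markers had higher sums in the same array, given with *Aldh1a3*. The part of any of these marker groups in the *Tgm2* difference was not tested. *Meis2*, encoding a homeobox factor of proximal limb mesenchyme, was the lower gene. Its leading probe set had signals of 93.9 in the columnar/hypertrophic section, against 229.8 in the round section, 2.45-fold lower in the columnar/hypertrophic section, and its other probe sets had log2 differences from -1.54 to -0.76, the last as a bound. The same perichondrium, tendon and fibroblast markers were lower beside it, and their part was not tested.

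The differences of the 4 members above the floor in both arrays moved little with the processing. The bound of *Rara* did move with the floor, as given above. Over the 8 alternatives to the reported setting, the log2 difference of *Cyp26b1* ran from 0.15 to 0.30, that of *Rbp4* from -0.37 to -0.20 and that of *Rxra* from -0.70 to -0.48. That of *Rarg* ran from -0.14, as the mean over its probe sets, to 0.12, and had no value on specific probe sets alone, since its probe sets are both of the kind shared by several transcripts. None of these reached 2-fold. *Aldh1a3* stayed past 2-fold in each, from 2.28 with the floor at the 60th percentile to 5.24 with the lower floor and with no floor.

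**Figure D4:**
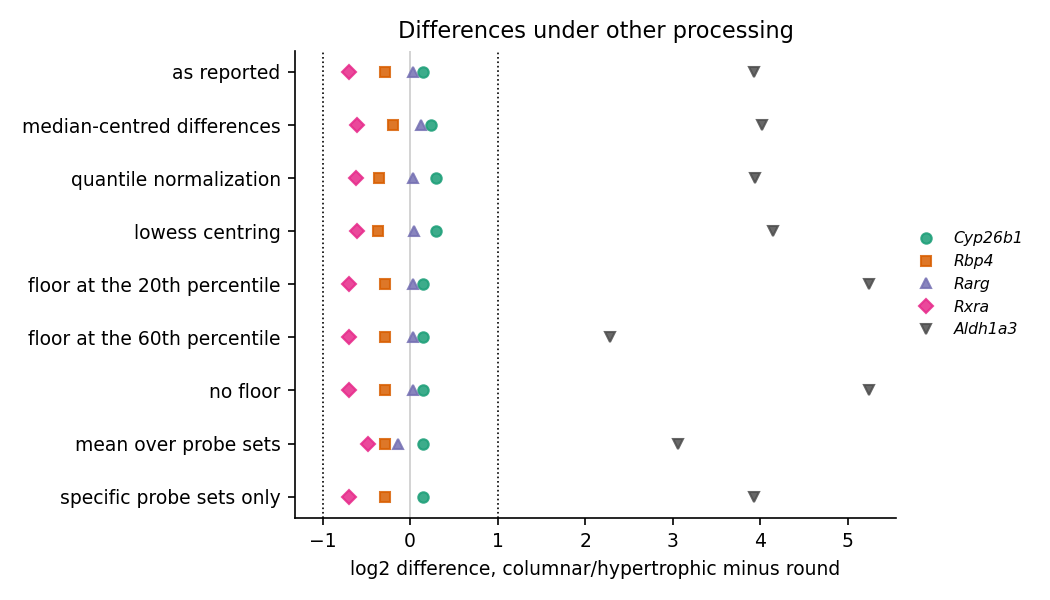
Log2 differences (x axis, columnar/hypertrophic minus round) of the 4 members above the floor in both arrays and of *Aldh1a3* under the reported setting and 8 alternatives (rows). Dotted lines mark 2-fold. The 4 members stay between -0.70 and 0.30, and *Aldh1a3*, which is a bound wherever the round section is at the floor, lies between 2.28 and 5.24.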

How the data were processed

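Total RNA of 2 *Tric-b*-knockout femoral cartilage sections, each a mixture of 3 preparations, was hybridized to Affymetrix mouse genome arrays, 1 per zone. The probe set intensities deposited by the authors are on a linear scale. They were made with MAS5 according to the submitters' notes on processing, where no version stands, and the RMA of the methods, used for heatmaps, would have given logs. They were used as deposited, since the trimmed means (2% at each end) were 496 in the columnar/hypertrophic section, against 497 in the round section. Detection calls were not used here, and the number of arrays limits the precision. Zones were assigned from the sample labels.

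Of 45037 probe sets, 34945 were annotated to 1 symbol, 932 to several and 9160 were unnamed here. All 12 member probe sets matched RefSeq genes by Entrez identifier. Each gene was read by its leading probe set, that of the highest log2 signal averaged over both arrays. Probe sets at the floor in both arrays were not compared, and at the floor in 1 array gave a bound. No test was run, since a zone had 1 array. Named were all members, and genes of the wider and induced lists whose leading probe set differed by 2-fold or whose probe sets lay past 0.5 on both sides of 0, which none met. All others were chosen as examples after their values were seen. Of the markers, *Prg4*, *Ihh*, *Col10a1* and *Col2a1* were named by rule, and *Lpl* as the adipocyte marker above the floor. *Vegfa* was named for its opposite direction, and the others for being at or near the floor. Protein sequences were not used here. The members and lists were chosen with earlier results of these data known. Alternatives were 3 scalings, 3 floors, 2 probe set rules and a 3-fold rule. Promoter windows were matched by symbol. The steps were tested on simulated data. Scripts ran under Python 3.11.15, with pandas 2.3.3 and numpy 2.4.6 for the values, lowess from statsmodels 0.14.6, and figures from matplotlib 3.10.9.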

Additional observations from a re-analysis of the deposited data

How the results depend on the processing

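No paired analysis was possible because a single array stood for each zone and nothing was tested. Each value was set against the pooled SD of 0.34 and each count against a 1.5-fold change. Of the counts and the median over the members, 25 values stayed within these limits and 10 moved, and of single genes 88 stayed and 10 moved. Members past 2-fold numbered 0 as reported, 1 with the 20th-percentile floor (*Rara*) and 3 with no floor (*Aldh1a2*, *Rara* and *Crabp2*). Wider retinoid genes past 2-fold numbered 3 as reported, 5 with the lower floor (20th percentile), 1 with the higher floor (60th percentile), 8 without a floor and 1 with a 3-fold rule. Induced genes past 2-fold numbered 2 as reported, 5 with no floor, and 1 each with the 60th-percentile floor, a 3-fold rule and specific probe sets only, among which *Tgm2* has none. The median over the members ran from -0.29 to 0.06. Over all genes, 541 were at least 2-fold higher and 785 lower in the columnar/hypertrophic section, against 1038 and 1486 with the lower floor, 342 and 402 with the higher floor, and 1940 and 2524 with no floor. Stricter floors and rules compare or count fewer genes by construction. Signals under the floor carry no order, and without a floor the log2 differences were 2.69 for *Aldh1a2*, -3.73 for *Rara*, 0.50 for *Rarb*, -0.98 for *Crabp1* and -1.77 for *Crabp2*.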

Other observations

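Promoter windows with a direct repeat of the receptor hexamers spaced by 5 bases belonged to 31 genes of the table, of which 11 had a probe set of their own. Of these 11, 9 lay under the floor in both arrays (81.8%), against 29.0% of the 14452 measured genes with a window. The 9 include *Rarb* and *Cyp26a1*, whose values are given above. The 2 compared were *Blvrb*, encoding biliverdin reductase B, with signals of 638.3 in the columnar/hypertrophic section, against 380.8 in the round section, and *Syndig1*, with 85.2 in the columnar/hypertrophic section, against 12.1 in the round section, under the floor. Neither reached 2-fold. The windows were counted after the member values had been seen, and cover only the bases around annotated starts.

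Probe sets of *Meis1*, an induced gene encoding another homeobox factor and chosen after its values were seen, did not agree. Its signals were 223.7, 173.8 and 97.2 in the columnar/hypertrophic section, against 331.9, 356.8 and 73.8 in the round section, with log2 differences of -0.57, -1.04 and 0.40.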
